A study of Mus musculus with 24 samples.

Results

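In the leukaemia line NUP98-JARID1A, 401 regions of the genome lay in a wide peak of the histone methyltransferase MLL1 while no other NUP98-fusion line had a wide MLL1 peak there. These regions were found in the peak lists of the DMSO cultures of 4 mouse leukaemia lines. Peaks of at least 2000 bp on chromosomes 1 to 19 and X were taken from each list, overlapping ones were merged to 1056 domains, and domains were kept when all of their wide peaks came from NUP98-JARID1A. The other domains comprised 258 that were wide in NUP98-JARID1A and at least 1 other line, 243 wide only in NUP98-HOXA9, 64 only in NUP98-HOXD13, 32 only in NUP98-NSD1 and 58 shared among lines without NUP98-JARID1A. The domains were thus chosen by peak width in the 4 DMSO lists, and that width is a description and not a finding.

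The study sequenced 24 chromatin immunoprecipitation (ChIP-seq) and input libraries from cultured mouse leukaemia cells with NUP98 fusions, and 14 of them have peak lists used here, which form 7 pairs. Cells were treated with VTP50469, which blocks the binding of menin to MLL1, or with the solvent DMSO. The MLL1 pairs are NUP98-JARID1A with 2 µM VTP50469 for 96 h against DMSO for 96 h, NUP98-HOXA9 with 2 µM for 72 h against DMSO for 72 h, NUP98-HOXD13 with 2 µM for 96 h against DMSO for 96 h, and NUP98-NSD1 with 200 nM for 96 h against DMSO for 96 h, a dose from the sample label where the protocol text gives 2 µM. The other pairs are Menin in NUP98-HOXA9, Menin in NUP98-HOXD13 and, in NUP98-HOXA9, histone H3 with trimethylated lysine 4 (H3K4me3), each with 2 µM VTP50469 for 96 h against DMSO for 96 h. All cultures shared a medium with the cytokines IL-3, IL-6 and SCF, and each fusion is represented by 1 line, so fusion and line cannot be told apart. Neither Menin nor H3K4me3 was mapped in NUP98-JARID1A in the lists used here, so for both marks the values at these domains come from other lines. Each condition is 1 library, so no difference below has a replicate check or a p-value, and intervals cover only the counting of domains.

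MLL1, also called KMT2A, writes methyl groups on lysine 4 of histone H3 and is held at many promoters through a domain that binds CG dinucleotides without methylation and through its partner menin. H3K4me3 normally marks the first part of active genes. The JARID1A part of the fusion comes from the histone demethylase KDM5A and carries a PHD finger that binds H3K4me3, whereas HOXA9 and HOXD13 contribute DNA-binding homeodomains and NSD1 contributes a methyltransferase of lysine 36 of histone H3. Such fusions keep blood progenitors in a self-renewing state with high HOX gene activity.

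As the CG content of a promoter bears on MLL1 binding, the 250 bases before 5 of the gene starts inside these domains are shown, in the direction of transcription, with each CG dinucleotide in capitals. They come from RefSeq on build GRCm38.p6 (mm10). Nkx2-3 and Six4 had no MLL1 peak in any other DMSO line, Gata2, Zeb2 and Cdkn2c had narrower ones, and these are 5 of the genes at the widest or the most enriched domains.
Nkx2-3, chr19:43612075-43612324, plus strand: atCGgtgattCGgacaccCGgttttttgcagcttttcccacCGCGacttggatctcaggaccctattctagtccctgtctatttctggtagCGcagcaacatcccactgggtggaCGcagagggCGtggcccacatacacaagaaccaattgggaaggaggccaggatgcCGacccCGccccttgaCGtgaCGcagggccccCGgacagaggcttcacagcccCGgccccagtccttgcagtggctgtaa
Six4, chr12:73113246-73113495, minus strand: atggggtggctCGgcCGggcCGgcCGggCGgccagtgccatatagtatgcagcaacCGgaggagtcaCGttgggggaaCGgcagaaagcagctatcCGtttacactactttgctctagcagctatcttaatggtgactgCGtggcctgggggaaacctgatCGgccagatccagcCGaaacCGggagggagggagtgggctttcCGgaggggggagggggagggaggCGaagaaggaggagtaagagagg
Gata2, chr6:88198414-88198663, plus strand: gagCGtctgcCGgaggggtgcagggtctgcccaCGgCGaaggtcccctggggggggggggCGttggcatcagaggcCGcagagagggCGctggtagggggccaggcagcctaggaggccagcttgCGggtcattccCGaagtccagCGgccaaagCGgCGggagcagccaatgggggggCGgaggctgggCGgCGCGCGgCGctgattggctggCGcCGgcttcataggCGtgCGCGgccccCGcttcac
Zeb2, chr2:45113254-45113503, minus strand: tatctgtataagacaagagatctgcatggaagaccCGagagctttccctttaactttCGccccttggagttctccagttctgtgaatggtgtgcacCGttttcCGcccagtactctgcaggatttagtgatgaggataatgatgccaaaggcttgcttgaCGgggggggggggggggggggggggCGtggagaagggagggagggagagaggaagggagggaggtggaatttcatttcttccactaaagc
Cdkn2c, chr4:109665373-109665622, minus strand: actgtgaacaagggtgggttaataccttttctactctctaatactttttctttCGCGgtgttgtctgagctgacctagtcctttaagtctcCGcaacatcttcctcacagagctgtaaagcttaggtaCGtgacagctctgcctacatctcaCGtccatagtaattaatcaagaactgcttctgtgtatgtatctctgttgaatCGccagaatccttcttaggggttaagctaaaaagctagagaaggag
The Gata2 promoter held 24 CG dinucleotides, that of Six4 15 and that of Nkx2-3 14, whereas those of Zeb2 and Cdkn2c held 6 each. Over all 402 annotated starts inside the 401 domains the median was 24 CG in 250 bases, with a GC content of 67.6%. The starts in domains shared with another line also had a median of 24, those in domains wide only in NUP98-HOXA9 18, those under NUP98-JARID1A peaks of less than 2000 bp 18, and all 21044 annotated starts a median of 10. At least 10 CG were present at 92.5% of the starts in the domains, against 86.9% of the starts under narrower NUP98-JARID1A peaks and 50.6% of all starts. Zeb2 and Cdkn2c thus belonged to the minority with fewer CG in the 250 bases before the annotated start. At both genes no H3K4me3 or Menin peak of the other lines reached these bases. The H3K4me3 peak of NUP98-HOXA9 in DMSO lay at -1201 to -561 bp from the Cdkn2c start. The longest one at Zeb2 lay at 2887 to 3949 bp. Whether another start is in use at these genes was not tested.

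Motif letters were searched in the same 250 bases on both strands. The letters GGGCGG, bound by SP and KLF factors, were found before 72.9% of the starts in the domains, 67.7% of those under narrower NUP98-JARID1A peaks and 43.0% of all starts. The ETS letters CCGGAAG were found before 48 of the 402 starts in the domains (11.9%), 1388 of the 7308 under narrower peaks and 1909 of all 21044 (9.07%). The GATA letters AGATAA were before 2.24% of the starts in the domains, 4.50% of those under narrower peaks and 8.84% of all starts, and TATAAA before 3.98%, 4.54% and 11.7% of these sets. CCAAT was before 34.6%, 38.6% and 35.6%. The NRF1 letters GCATGCGC were before 5.22%, 5.86% and 2.95%, and the RUNX letters TGTGGTTT before 0.746%, 0.876% and 1.33%. The windows of neighbouring starts can overlap, and the letters searched do not contain each other. The 250 bases shown for Cdkn2c held none of the motif letters searched, Six4 and Zeb2 held GGGCGG, and Gata2 and Nkx2-3 held both GGGCGG and CCAAT.

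**Figure D1:**
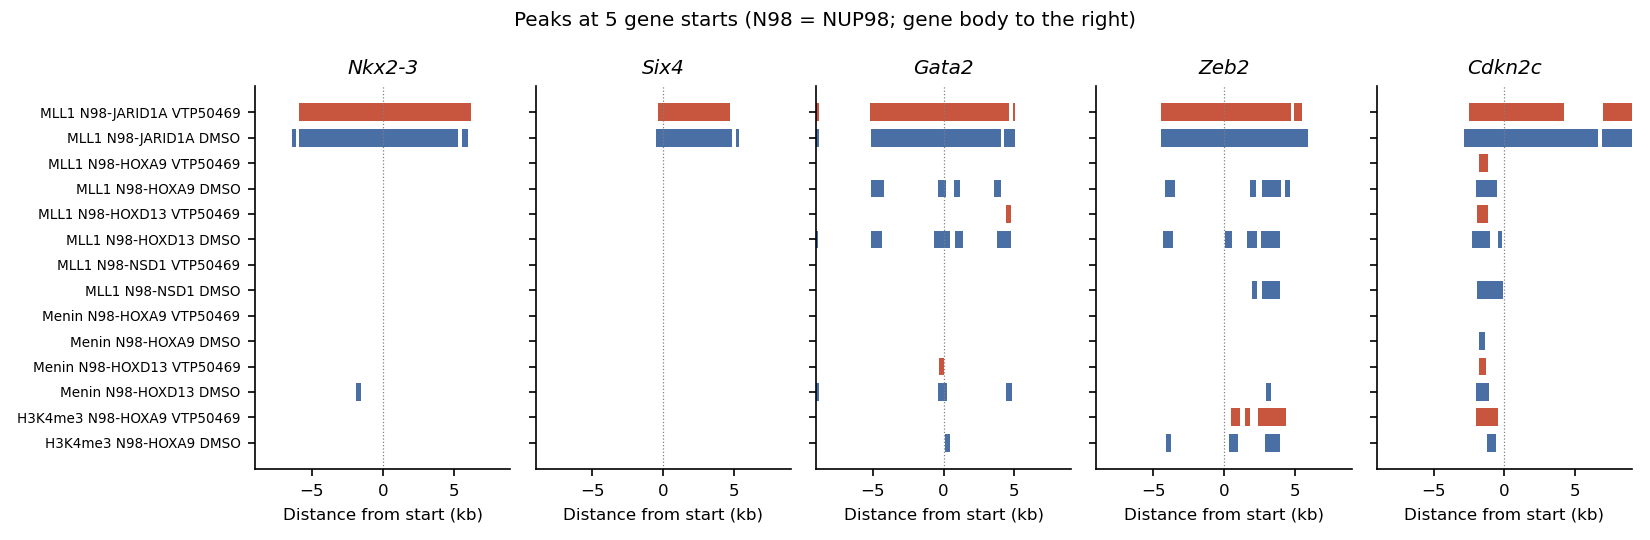
Peaks of the 14 libraries around the annotated starts of 5 genes, as bars along the distance from the start in kb, with transcription to the right and VTP50469 (red) above DMSO (blue) in each pair. Bars are cut at 9 kb. The NUP98-JARID1A bars span the start at all 5 genes after VTP50469 and in DMSO, and no other line has an MLL1 bar at Nkx2-3 or Six4.

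The domains were between 2004 and 11697 bp wide, with a median of 2612 bp and quartiles of 2213 and 3453 bp, and covered 1263711 bp in all. Of the 401, 184 were under 2500 bp and 47 reached 5000 bp. Domains wide in NUP98-JARID1A and another line were wider, with a median of 3788 bp, and those wide only in NUP98-HOXA9 narrower, with a median of 2318 bp. The smallest domains were at Arid5b (2004 bp), Cep57l1 and Sesn1 (2005 bp), Pgrmc2 (2007 bp) and Dgkd (2009 bp), while NUP98-JARID1A peaks at Clip1 (1997 bp), Ptbp1 (1996 bp), Dpm1 and Mocs3 (1994 bp) and Khdrbs1 (1993 bp) stayed just under the minimum. The authors' fold enrichment of these peaks had a median of 17.3 and ran between 4.49 and 72.4, in a list whose median was 8.47.

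The widest domain, 11697 bp, covered the start regions of Ankrd13a, a ubiquitin-binding adaptor, and Git2, a regulator of ARF GTPases. The next were at Nkx2-3 (11199 bp), a homeobox gene known for spleen and gut development, and at Zeb2 (10375 bp), a zinc-finger repressor of blood cell differentiation. They were followed by Cdkn2c (9472 bp), which encodes an inhibitor of CDK4 and CDK6, Bcl11a (9460 bp), a repressor of fetal globin genes, and Gata2 (9144 bp), a transcription factor of blood stem cells and mast cells. Elf1 (7883 bp), an ETS factor, Ppp1r15b (7686 bp), a regulatory subunit of the phosphatase of eIF2α, and the paired starts of Klhl28 and Togaram1 (7729 bp) were also among the 10 widest, as was a domain of 8476 bp within Bcor, a subunit of a Polycomb repressive complex. The highest fold, 72.4, was at Nkx2-3, followed by Purb (58.4), Pde3b (55.4) and Cdkn2c (52.3).

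Most of these places had MLL1 peaks in the other lines, only shorter ones. In DMSO, 384 of the 401 domains (95.8%) had an MLL1 peak in NUP98-HOXA9, 383 (95.5%) in NUP98-HOXD13 and 319 (79.6%) in NUP98-NSD1. Over all 15632 NUP98-JARID1A peaks in DMSO the shares were 85.9%, 80.5% and 36.5%, and over its 664 wide peaks 97.1%, 96.8% and 84.2%. A peak in another line was thus more frequent at these domains than at NUP98-JARID1A peaks in general. However, the domains have at least 2000 bp by choice, whereas the median width of all those peaks was 455 bp. An overlap of 1 bp counts, so a wider region is touched more easily, and the part of width was not tested. The same limit holds below wherever shares at the domains are set against all NUP98-JARID1A peaks. All its wide peaks include those where another line is wide, which the choice set aside. The 258 domains shared with another line had a peak at 258 in NUP98-HOXA9, 257 in NUP98-HOXD13 and 236 in NUP98-NSD1. How much of the higher shares goes with the choice was not tested. With the 4 DMSO lists cut to the length of the shortest, the shares at the domains were 57.9% in NUP98-HOXA9, 59.9% in NUP98-HOXD13 and 79.6% in NUP98-NSD1, and NUP98-NSD1 was then the highest. In the full lists, all 3 other lines had a peak at 315 domains, 2 lines at 68, 1 line at 5 and none at 13. The median share of a domain in peaks was 51.2% in NUP98-HOXA9, 43.1% in NUP98-HOXD13 and 25.6% in NUP98-NSD1, whose DMSO list is the shortest of the 4 with 7064 peaks.

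How far a domain is particular to NUP98-JARID1A therefore varied. The widest peak of another line had at least 1500 bp at 182 domains, at least 1000 but under 1500 bp at 136, at least 500 but under 1000 bp at 65 and less at 5. It lay in NUP98-HOXA9 at 211 domains, in NUP98-HOXD13 at 136 and in NUP98-NSD1 at 41. The nearest to the minimum were at Mfsd11 and Srsf2 (1998 bp in NUP98-HOXD13), Cytip (1986 bp in NUP98-HOXA9), a domain on chromosome 2 with no gene start or end within 1 kb (1982 bp) and Lonrf1 (1981 bp). The DMSO MLL1 lists differ in length, with 15632 peaks in NUP98-JARID1A, 22339 in NUP98-HOXA9, 19970 in NUP98-HOXD13 and 7064 in NUP98-NSD1. Whether the width in another line moved with how much was called there was not tested. For the choice of domains, list length was varied only in the equal-length alternative given in the closing section.

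At 13 domains no other DMSO list had an MLL1 peak. Nkx2-3 was the widest of them: 11197 bp of its 11199 bp were in MLL1 peaks of NUP98-JARID1A after VTP50469, against all 11199 bp in DMSO. No MLL1 list of the other 3 lines had a base there with either agent, H3K4me3 in NUP98-HOXA9 had none, and Menin in NUP98-HOXD13 covered 0 bp after VTP50469 and 294 bp in DMSO. The domain ran 5890 bp upstream and 5309 bp downstream of the Nkx2-3 start. Six4, a homeobox gene of the sine oculis family, had 5042 bp after VTP50469 and 5383 bp in DMSO, and no peak of any other list. There 489 bp lay upstream and 4894 bp downstream of the start. Pik3c2b, a class II phosphoinositide kinase, had 3242 bp after VTP50469 and 4073 bp in DMSO and likewise no peak elsewhere.

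Pde3b, a phosphodiesterase that breaks down cAMP, differed from these. Its domain had 2320 bp after VTP50469 against 6000 bp in DMSO, and H3K4me3 in NUP98-HOXA9 covered 1239 bp after VTP50469 and 930 bp in DMSO although MLL1 had no peak in that line. A second domain with H3K4me3 but no other MLL1 peak lay within Fam107b, with 1802 bp of H3K4me3 after VTP50469 and 1312 bp in DMSO. The other 11 of the 13 had no H3K4me3 peak in NUP98-HOXA9. All 4 domains that had no peak left in NUP98-JARID1A after VTP50469 were among the 13: chr13:28880925-28885354 (4430 bp in DMSO), which overlaps no gene in the table, a stretch of 2693 bp inside Gpbp1, 1 of 2454 bp at Frzb, a secreted inhibitor of WNT signalling, and 1 of 2124 bp inside Cdk13, a kinase of RNA polymerase II.

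The other wide domains at developmental regulators had short or scattered peaks elsewhere. At Gata2, MLL1 of NUP98-JARID1A covered 9144 bp after VTP50469 and 9144 bp in DMSO. NUP98-HOXA9 had 0 bp after VTP50469 and 2394 bp in DMSO there, NUP98-HOXD13 0 bp and 2798 bp, and NUP98-NSD1 0 bp with either agent. At Zeb2, NUP98-JARID1A had 9753 bp after VTP50469 and 10375 bp in DMSO. NUP98-HOXA9 had 0 bp after VTP50469 and 2818 bp in DMSO at Zeb2, NUP98-HOXD13 0 bp and 3281 bp, and NUP98-NSD1 0 bp and 1567 bp. So at both genes MLL1 peaks covered the whole domain or nearly so in NUP98-JARID1A after VTP50469, while no other treated line had a base in them.

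Bcl11a showed another pattern. NUP98-JARID1A covered 8608 bp of the Bcl11a domain after VTP50469 and 9460 bp in DMSO, NUP98-HOXD13 573 bp and 5807 bp spread over peaks of which the widest was 1765 bp, and neither NUP98-HOXA9 nor NUP98-NSD1 had any. Several short peaks of NUP98-HOXD13 in DMSO thus added up to most of the length that was 1 domain in NUP98-JARID1A. At Cdkn2c, NUP98-JARID1A had 6676 bp after VTP50469 and 9472 bp in DMSO, with NUP98-HOXA9 at 692 and 1503 bp, NUP98-HOXD13 at 781 and 1554 bp and NUP98-NSD1 at 0 and 1819 bp. Next to it, chr4:109655473-109658457 was a further domain of 2985 bp with no MLL1 peak in another DMSO line and a fold of 47.5 in NUP98-JARID1A.

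A gene start or end lay within 1 kb of 372 of the 401 domains (92.8%), against 57.0% of all NUP98-JARID1A peaks in DMSO and 90.1% of its wide peaks. Among domains shared with another line the count was 227 of 258 (88.0%), and among those wide only in NUP98-HOXA9 it was 122 of 243 (50.2%). Wide peaks of NUP98-HOXA9, NUP98-HOXD13 and NUP98-NSD1 as a whole stood at 66.2%, 78.0% and 63.9%. Wide MLL1 peaks of NUP98-JARID1A were therefore gene-end peaks more often than those of the other 3 lines, and the 401 domains shared this with all wide peaks of their line. Of the domains, 394 overlapped a gene and 7 none.

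Most of the domains measured extended farther into the gene than away from it. An annotated start lay inside 294 of the 401 domains, in 44 on both strands and in 250 on 1 strand. Only these 250 were measured. Where several starts lay inside, distances were taken from the outermost, which counts all bases beyond it as downstream. Over these 250, a domain reached a median of 2119 bp downstream of the start (quartiles 1746 and 2876 bp) and 505 bp upstream (quartiles 314 and 818 bp). The downstream side was the longer at 243 of 250 (97.2%). It was the longer at 137 of 160 (85.6%) domains shared with another line and at 48 of 77 (62.3%) wide only in NUP98-HOXA9. With a single annotated start inside, the counts were 211 of 218, 111 of 133 (83.5%) and 39 of 62 (62.9%). Six4 followed the general shape, while Gata2 and Nkx2-3 reached farther upstream than downstream.

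**Figure D2:**
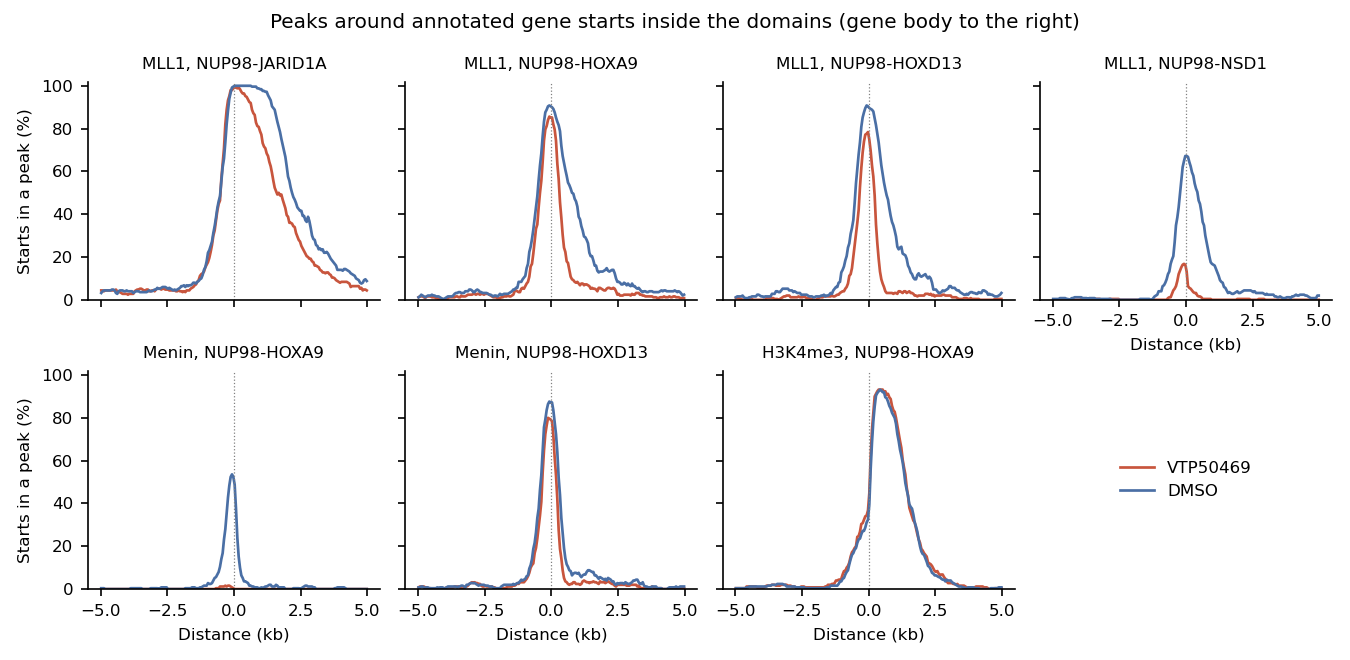
Share of the 250 starts in the domains that lie in a peak, in percent, by distance from the start in kb, with the gene body to the right. VTP50469 is red and DMSO blue. In NUP98-JARID1A the curve falls off slowly downstream and at 1 kb stands at 78.8% after VTP50469 and 98.4% in DMSO, and in NUP98-HOXA9 it stands at 8.40% and 43.6% there.

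The same starts were covered in the other lines, with less of the downstream side. Within 5 kb downstream of the 250 starts, MLL1 peaks of NUP98-JARID1A covered a mean of 1947 bp after VTP50469 and 2593 bp in DMSO, and upstream 785 bp and 800 bp. NUP98-HOXA9 covered 481 bp after VTP50469 and 1065 bp in DMSO downstream, and 517 bp and 663 bp upstream. NUP98-HOXD13 covered 291 bp and 933 bp downstream, and 391 bp and 637 bp upstream. In NUP98-NSD1 the downstream mean was 30.3 bp after VTP50469 and 579 bp in DMSO, and the upstream mean 65.2 bp and 302 bp. In DMSO NUP98-JARID1A, the line whose width chose the domains, thus had the longest mean on both sides. It stood farther above the next line, NUP98-HOXA9, downstream (2593 against 1065 bp) than upstream (800 against 663 bp). As the choice favours length in NUP98-JARID1A, this contrast between lines is a description and not a separate finding.

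The treated NUP98-JARID1A library differed from its DMSO library mainly on the downstream side. The downstream mean changed by -646 bp and the upstream mean by -14.6 bp. Downstream cover was shorter after VTP50469 at 209 of the 250 starts and longer at 35, whereas upstream cover was shorter at 107 and longer at 139. At the starts in domains shared with another line the means changed by -525 bp downstream and -20.7 bp upstream. In NUP98-HOXA9, at the 250 starts, they changed by -584 bp downstream and -146 bp upstream, and in NUP98-HOXD13 by -642 bp and -246 bp. At 5437 starts under NUP98-JARID1A peaks of less than 2000 bp the NUP98-JARID1A means changed in the other direction, by 62.2 bp downstream and 116 bp upstream. The domains were picked for a long DMSO peak, and how much of the shortening goes with that choice was not tested.

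H3K4me3 in NUP98-HOXA9 had a similar lean at these starts. It covered a mean of 1426 bp downstream after VTP50469 and 1372 bp in DMSO, and upstream 267 bp and 231 bp. It was present at most of these starts at 1 kb downstream, with 82.8% after VTP50469 and 80.0% in DMSO. Menin did not have this lean: in NUP98-HOXD13 its downstream mean was 270 bp after VTP50469 and 450 bp in DMSO, with 411 bp and 486 bp upstream, and in NUP98-HOXA9 the means in DMSO were 105 bp downstream and 221 bp upstream. These are lengths in other lines, and whether H3K4me3 has the same extent in NUP98-JARID1A was not tested.

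An H3K4me3 peak of NUP98-HOXA9 touched 377 of the 401 domains (94.0%) after VTP50469 and 376 (93.8%) in DMSO. All NUP98-JARID1A peaks stood at 48.9% and 47.2%, and its wide peaks at 94.0% and 93.8%. In DMSO the domains shared with another line had one at 247 of 258, and those wide only in NUP98-HOXA9 at 122 of 243 (50.2%), although the mark was mapped in that very line. The median share of a domain in H3K4me3 peaks was 57.6% after VTP50469 and 53.8% in DMSO, and the covered bases were 633545 and 598105 bp. Of the 376 domains with a DMSO peak, 4 had none after VTP50469, against a background of 9.40% of all H3K4me3 peaks, and 214 had more peak length and 161 less, where 53.8% of all its peaks had more. The longest H3K4me3 cover in DMSO was at Ino80d, with 4234 bp after VTP50469 and 3681 bp in DMSO, and at Ppp1r15b, Jarid2, Lipg and Kmt2d it was between 2953 and 4168 bp after VTP50469.

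Menin peaks were at 242 domains in the DMSO list of NUP98-HOXA9 (60.3%) and at 366 in that of NUP98-HOXD13 (91.3%). All NUP98-JARID1A peaks had them at 49.4% and 77.9%, and wide ones at 61.4% and 92.5%. They covered less of a domain than MLL1 of the same line, with a median share in DMSO of 26.9% in NUP98-HOXD13 and 9.68% in NUP98-HOXA9. All 242 domains with a Menin peak in NUP98-HOXA9 also had one in NUP98-HOXD13, and 35 domains had it in neither line. After VTP50469, 232 of the 242 domains lost their Menin peak in NUP98-HOXA9, against a background of 96.3% of all its Menin peaks, and 26 of 366 in NUP98-HOXD13, against 20.0%. The treated Menin list of NUP98-HOXA9 holds 345 peaks on the chromosomes used. In NUP98-HOXD13 the longest Menin cover in DMSO was at Gse1, with 2029 bp after VTP50469 and 2676 bp in DMSO, and at Ing1, a reader of H3K4me3, with 2190 bp and 2488 bp.

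**Figure D3:**
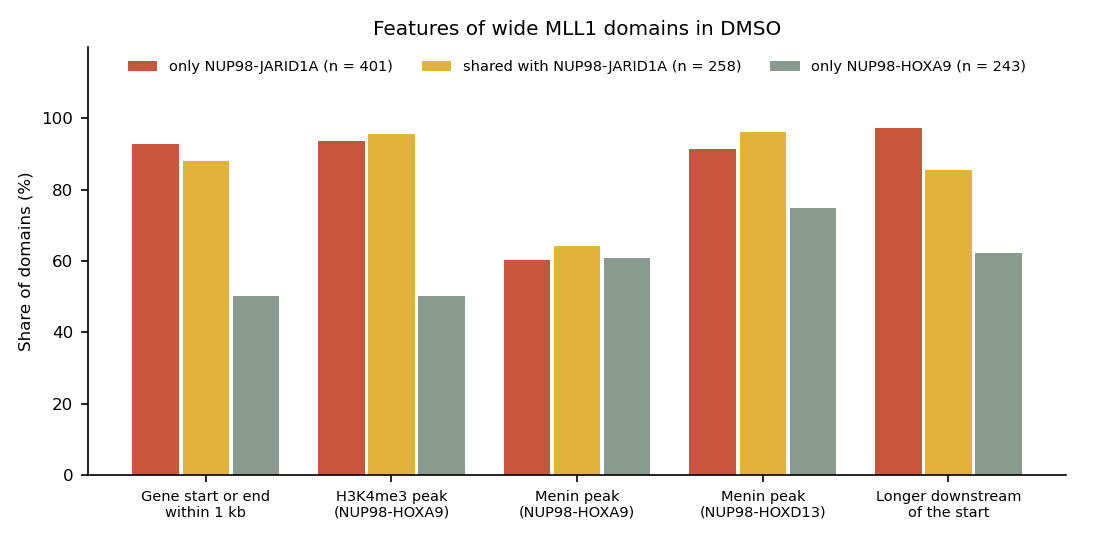
Share of domains, in percent, with a gene start or end, an H3K4me3 peak or a Menin peak in DMSO, and share longer downstream than upstream of the start, for the 401 domains wide only in NUP98-JARID1A (red), the 258 shared with another line (yellow) and the 243 wide only in NUP98-HOXA9 (grey). For the last feature the bars count 250, 160 and 77 domains with a start on 1 strand. The NUP98-JARID1A bars stand above the NUP98-HOXA9 bars by the most at H3K4me3, gene ends and the downstream side, and the Menin bars of NUP98-HOXA9 are nearly level.

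After VTP50469, nearly all domains of NUP98-JARID1A still had MLL1 peaks, most of them shorter. In bulk chromatin, fewer cells with MLL1 at a site and less MLL1 per cell cannot be told apart. Of the 401 domains, 397 (99.0%, 95% Wilson interval 97.5% to 99.6%) still had an MLL1 peak, against 91.4% of all NUP98-JARID1A peaks in DMSO and 99.2% of its wide peaks, and 4 had lost it, against a background of 8.60% and 0.753%. With both NUP98-JARID1A lists cut to equal length, 3.74% of the domains were lost. The covered bases were 952202 bp after VTP50469 and 1263711 bp in DMSO, a share of 75.3%. The median share of a domain that stayed in a peak was 77.5%. At most 50% of the DMSO bases were left at 43 domains (10.7%, against 11.8% of all peaks and 9.94% of wide peaks), and at 17.5% with lists of equal length. A treated peak of at least 2000 bp touched 199 domains (49.6%, against 5.39% and 59.9%). The peaks that touched a domain, at their full length, were shorter at 323 domains and longer at 78, with a median ratio of 0.794 of VTP50469 over DMSO and quartiles of 0.631 and 0.955. Longer peaks were found at 69.2% of all DMSO peaks of the line and at 22.6% of its wide peaks. They reached at least 1.5 times the DMSO length at 14 domains (3.49%, against 37.0% of all peaks and 3.46% of wide peaks). At 95 domains the treated peak was in several pieces.

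The pair was also read from the treated side, over a different set of peaks. Of 627 wide MLL1 peaks of NUP98-JARID1A after VTP50469, 401 (64.0%) touched a wide DMSO peak and 77 (12.3%) had at most 50% of their bases in DMSO peaks. The treated list of this pair is the longer, with 24714 peaks against 15632 in DMSO. Domains shared with another line kept a wide peak at 197 of 258 (76.4%) and narrowed to at most 50% at 23 (8.91%). In NUP98-HOXA9, treated for 72 h, domains wide only in that line narrowed to at most 50% at 134 of 243 (55.1%), and 15 (6.17%) kept a wide peak. All its wide DMSO peaks stood at 50.6% and 12.4%, and 28.6% of all its DMSO peaks narrowed. The treated list of that pair is the shorter, with 21537 peaks against 22339 in DMSO. The part of list length and time in these values was not tested.

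**Figure D4:**
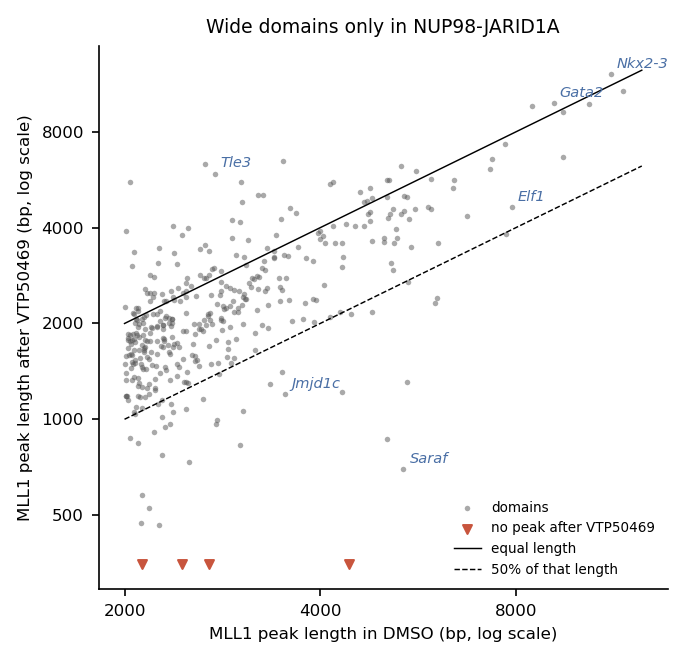
Summed full length of the MLL1 peaks that touch each of the 401 domains in NUP98-JARID1A, after VTP50469 (vertical) and in DMSO (horizontal), in bp on log axes. The solid line marks equal length and the dashed line 50% of it, and triangles mark the 4 domains with no peak after VTP50469. Most points, 323 of 401, lie below the solid line.

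In the other lines the domains lost more of their shorter MLL1 peaks. After VTP50469, NUP98-HOXA9 had a peak at 367 domains, NUP98-HOXD13 at 335 and NUP98-NSD1, treated at 200 nM, at 67. These are shares of 91.5%, 83.5% and 16.7%, where all NUP98-JARID1A peaks in DMSO stood at 82.5%, 70.3% and 5.56%, and its wide peaks at 93.4%, 85.2% and 22.9%. With every treated MLL1 list cut to the length of the shortest, that of NUP98-NSD1, the shares were 12.7% in NUP98-HOXA9, 11.7% in NUP98-HOXD13 and 16.7% in NUP98-NSD1, against 15.2% in NUP98-JARID1A, so the order of the lines turned. The median covered share in NUP98-HOXA9 was 29.8% after VTP50469 and 51.2% in DMSO, and that in NUP98-HOXD13 was 20.3% and 43.1%. In NUP98-HOXA9, 17 of 384 domains lost their peak, against 21.5% of all its peaks, and 126 (32.8%) narrowed to at most 50%, against 28.6%. In NUP98-HOXD13, 48 of 383 lost it, against 32.7%, and 194 (50.7%) narrowed, against 42.0%. In NUP98-NSD1, 255 of 319 (79.9%) had lost it, against 89.2% of all its peaks, and 296 (92.8%) narrowed, against 95.6%. Covered bases after VTP50469 came to 58.6% of DMSO in NUP98-HOXA9, 46.7% in NUP98-HOXD13 and 9.20% in NUP98-NSD1. Loss was below the background of all peaks in each of these 3 lines. A domain can hold several peaks, though, and is lost only when all of them go. Over the wide DMSO peaks of NUP98-HOXA9, NUP98-HOXD13 and NUP98-NSD1 loss was 5.13%, 13.7% and 44.5%, against 4.43%, 12.5% and 79.9% at the domains. Narrowing was above the background of all peaks in NUP98-HOXA9 and NUP98-HOXD13 and below it in NUP98-NSD1. Over the wide peaks of these lines it was 50.6%, 59.2% and 90.8%. The doses and times differ between lines, and the difference between lines was not tested.

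**Figure D5:**
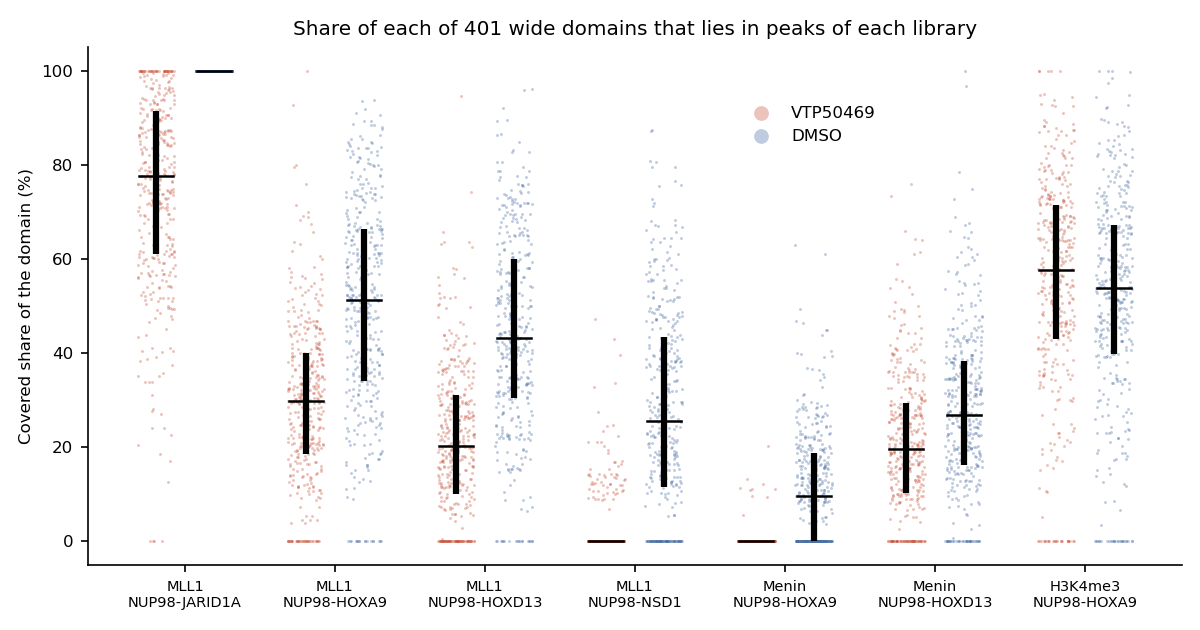
Share of each of the 401 domains that lies in peaks of each library, in percent, with VTP50469 (red) left of DMSO (blue) in each pair. Points are domains, horizontal bars medians and thick bars quartiles. The MLL1 DMSO column of NUP98-JARID1A is at 100% by construction, and the median after VTP50469 is 77.5% there, against 20.3% in NUP98-HOXD13 and 29.8% in NUP98-HOXA9.

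The falls in NUP98-JARID1A were unequal between genes. The longest was at Saraf, which encodes a regulator of calcium entry: 675 bp of the domain were in MLL1 peaks after VTP50469 against 5368 bp in DMSO. Within Dtnbp1, a subunit of a complex for lysosome-related organelles, 867 bp remained against 5077 bp. Rfx7, a transcription factor, had 1312 bp after VTP50469 and 5437 bp in DMSO, and Crlf3 2366 and 6056 bp. Klhl28 with Togaram1 had 3812 and 7729 bp, and Elf1 4633 and 7883 bp. At Elf1 the other lines also had long broken cover in DMSO, with 1737 bp after VTP50469 and 4585 bp in DMSO for NUP98-HOXA9, and 231 and 3397 bp for NUP98-HOXD13.

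Rises were fewer. At Tle3, a Groucho-type co-repressor, the touching NUP98-JARID1A peaks had a full length of 5920 bp after VTP50469 and 2751 bp in DMSO. A domain of 2663 bp within Bcor had 6338 and 2663 bp, and a neighbouring pair at Ncln and at Ncln with S1pr4, a receptor for sphingosine-1-phosphate, shared 1 treated peak of 5559 bp against DMSO peaks of 2040 and 3026 bp. Trim8 had 5082 bp after VTP50469 and 3205 bp in DMSO, Zfp516 5079 and 3263 bp, Fam78a 3912 and 2013 bp, and a domain within Trim17 6472 and 3509 bp.

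A start or end of 436 of 21627 protein-coding genes lay within 1 kb of a domain, a share of 2.02%, which is the background over all genes for each list that follows. Only 9177 of the 21627 had any MLL1 peak of NUP98-JARID1A in DMSO, so among genes with a peak the share is higher. Such a peak was at 19 of 26 menin and MLL targets, 18 of 24 stem and progenitor regulators and 2 of 20 lymphoid genes. The lists were chosen with earlier results of these data known. Among 26 known targets of menin and MLL in leukaemia, 6 were at a domain: Myc, Bcl2, Zeb2, Elf1, Jmjd1c and Crlf3. A further set of 11 of the 26, with Meis1, Hoxa9, Hoxa10, Cdk6 and Myb, was at domains shared with other lines, and Elf1 is in both sets. None of 39 Hox genes was at a domain wide only in NUP98-JARID1A, which is near the background of 2.02%, and 11 of them were at shared domains. At Myc, the proliferation factor, NUP98-JARID1A covered 5103 bp after VTP50469 and 5103 bp in DMSO. In the other lines Myc had 1524 and 3252 bp in NUP98-HOXA9, 990 and 2429 bp in NUP98-HOXD13 and 0 and 1548 bp in NUP98-NSD1. Jmjd1c, which encodes a protein of the histone lysine demethylase family, had 1197 bp after VTP50469 and 3535 bp in DMSO in NUP98-JARID1A, and Bcl2, the inhibitor of apoptosis, 1566 and 2289 bp.

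Of 24 regulators of stem and progenitor cells, 5 were at a domain, namely Gata2, Nkx2-3, Fli1, Hhex and Msi2. Hhex, a homeobox gene of early blood cells, had 2746 bp after VTP50469 and 2746 bp in DMSO in NUP98-JARID1A, and the ETS factor Fli1 3190 and 3399 bp. Msi2, an RNA-binding protein, had 1989 and 3047 bp. Of 28 genes of myeloid differentiation, 1 was at a domain (3.57%, against 2.02% of all genes). It was Prtn3, a neutrophil protease, with 2041 bp after VTP50469 and 2269 bp in DMSO. The lymphoid list had Ikzf1 (1 of 20) with 3520 and 4222 bp, the mast cell and basophil list Gata2 (1 of 18) and the erythroid and megakaryocyte list Fli1 (1 of 21). Of 10 general leukocyte markers, Ptprc, which encodes CD45, and Fli1 were at a domain, and Ptprc had 844 bp after VTP50469 and 2096 bp in DMSO. Of those 10 markers, 10 had an MLL1 peak at a start or end in NUP98-JARID1A after VTP50469 and 9 in DMSO. In DMSO 9177 of all 21627 coding genes had one in this line. In NUP98-NSD1, 0 of the 10 markers had one after VTP50469 and 4 in DMSO. These counts therefore do not identify the cell type.

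Chromatin regulators were 4 of 24: Suz12, a core subunit of Polycomb repressive complex 2, Kdm2b, which binds CG-rich DNA, Arid1a, a subunit of SWI/SNF remodellers, and the remodeller Chd7. Arid1a had 5061 bp after VTP50469 and 5061 bp in DMSO in NUP98-JARID1A, Kdm2b 2470 and 2484 bp, Chd7 2460 and 3051 bp and Suz12 1931 and 3326 bp. From 23 genes of MLL and menin complexes, Kmt2c and Kmt2d, the paralogous methyltransferases of lysine 4, were at domains. Kmt2d had 5005 bp after VTP50469 and 5442 bp in DMSO, and Kmt2c 1243 and 2164 bp. Cell cycle genes at domains were Cdkn1a, Cdkn2c and Myc (3 of 19), and Cdkn1a, which encodes the CDK inhibitor p21, had 2186 and 2186 bp. Signalling genes had Stat5b (1 of 24) with 1089 bp after VTP50469 and 2308 bp in DMSO. Klf6 and Sox4 were the 2 of 33 from several families of transcription factors, with 2056 and 2056 bp at Klf6 and 3342 and 5205 bp at Sox4. None of 25 housekeeping genes was at a domain, and 24 of them had some MLL1 peak of NUP98-JARID1A in DMSO. With 2.02% of all genes at a domain, 0 of 25 is near the background.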

How the data were processed

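Groups follow the labels' agent, time, antibody and line, and each of the 14 deposited peak lists belongs to 1 library. Build mm10 and the programs MACS2, STAR 2.7.5a, bcl2fastq 2.20.0.422, bedtools, Picard 2.9.4 and SAMtools are named per the submitters' processing notes, without their settings. Which input was the control in each peak calling is not stated in the sources. Each row of a deposited list gives a position, a score, a fold enrichment (a linear ratio) and −log10 values of p and q. The authors' deposited score was not used, their fold only describes or ranks peaks within 1 list, and their −log10 q only filters or ranks peaks in alternatives. The lists do not hold read depth, which is therefore unknown, and the number of peaks called differs between libraries, which can move covered lengths.

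Covered length is the number of bases of a domain in peaks of a list, with an overlap of 1 bp enough to count a peak as present. A domain was lost when no VTP50469 peak shared a base with it, and narrowed when at most 50% of its DMSO bases stayed covered. Gene ends came from the RefSeq table of GRCm38.p6, and starts and promoter letters from its table of 21044 starts of 17273 genes. The other 4354 coding genes entered by both ends. Exons, introns and untranslated regions were not annotated. Overlap code was tested on simulated intervals. Python 3.11.15, pandas 2.3.3, numpy 2.4.6 and scipy 1.17.1 were used, and shares carry 95% Wilson intervals where given. No test was run, as each condition has 1 library. The genes named are those at the widest, most enriched, most changed, list-gene, line-specific, most marked and borderline domains. The domains and gene lists were chosen with earlier results of these data known.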

Additional observations from a re-analysis of the deposited data

Results flagged for a closer look

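At 8 domains the MLL1 peaks that touch the domain were longer after VTP50469 than in DMSO in NUP98-JARID1A and shorter in each other line that had a DMSO peak there, and this difference between lines was not tested. In NUP98-JARID1A the summed full length was higher after VTP50469 by 3675 bp at the domain within Bcor, by 3519 bp at Ncln and by 3169 bp at Tle3. It was higher by 2963 bp within Trim17, by 2533 bp at Ncln with S1pr4, by 1899 bp at Fam78a, by 1877 bp at Trim8 and by 1816 bp at Zfp516. Both neighbouring Ncln domains were touched by the same treated peak of 5559 bp. It is counted in full at each, so their rises are not separate. With peaks within 500 bp joined, 0.998% of the domains reached at least 1.5 times the DMSO length, against 3.49% without joining. At Tle3, NUP98-HOXA9 had 722 bp after VTP50469 and 1297 bp in DMSO, and NUP98-HOXD13 had 310 and 1134 bp. At Zfp516, NUP98-HOXA9 had 1263 and 2291 bp, NUP98-HOXD13 379 and 769 bp, and NUP98-NSD1 0 and 1643 bp. Over all 401 domains, 78 were longer after VTP50469 in NUP98-JARID1A, and 62 of these were shorter in each other line with a DMSO peak. Shorter peaks after VTP50469 were frequent in those lines in any case. They were found at 91.7% of the domains with a DMSO peak in NUP98-HOXA9, 98.4% in NUP98-HOXD13 and 98.7% in NUP98-NSD1, and over all DMSO peaks of these lists at 65.4%, 86.4% and 99.0%. In the whole NUP98-JARID1A pair 69.2% of the DMSO peaks were longer after VTP50469, and the part of list length in these values was not tested.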

How the results depend on the processing

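Of 85 alternative values, 70 stayed within a factor of 1.5 of the value reported. Some of these could not move, as the cut to equal length leaves the shortest list unchanged. A width minimum of 3000 bp left 223 domains, of which 0.448% were lost after VTP50469 in NUP98-JARID1A, 85.2% kept a treated peak of at least 2000 bp and 0.448% had a Menin peak in treated NUP98-HOXA9. Requiring no MLL1 peak of 1000 bp or more in another DMSO line left 83 domains. A minimum of 1500 bp gave 482 domains, which overlapped 219 of the 401, and joining peaks within 500 bp gave 402, which overlapped 303. With the NUP98-JARID1A lists cut to equal length by −log10 q, 3.74% of the domains were lost and 17.5% narrowed. With at most 25% of the DMSO bases as the limit 2.74% narrowed, and with joined peaks 0.998% were longer. Cutting all lists of 1 antibody and agent to the shortest lowered the share of domains with a peak. It became 15.2% in treated NUP98-JARID1A, 12.7% in treated and 57.9% in DMSO NUP98-HOXA9, 11.7% in treated and 59.9% in DMSO NUP98-HOXD13, and 3.24% for Menin in treated NUP98-HOXD13. NUP98-NSD1, whose lists are the shortest, stayed at 16.7% treated and 79.6% in DMSO and so became the highest of the 4 treated lines and of the other 3 lines in DMSO. Fewer peaks remain in those lists by construction. Cutting the DMSO MLL1 lists to equal length before choosing gave 436 domains, which overlapped 383 of the 401. The lean to the downstream side was 96.8% with 1 start inside, 94.5% at 3000 bp and 95.5% with joined peaks, 3 alternatives chosen after seeing the data. No paired analysis was possible because each condition has 1 library. Peak lists carry no read depth, so a missing peak is not shown to be missing MLL1.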

Other observations

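Chromosome 11 held 55 of the 401 domains (13.7%), against 8.26% of all NUP98-JARID1A MLL1 peaks in DMSO, 7.36% of the domains shared with another line and 7.44% of the protein-coding genes. Wide MLL1 peaks of NUP98-JARID1A lay on it at 12.4% after VTP50469 and 11.3% in DMSO, the DMSO ones including the domains. In DMSO the share was 12.6% (15 of 119) of the wide MLL1 peaks of NUP98-NSD1. It was 6.84% (36 of 526) in NUP98-HOXA9 and 7.58% (21 of 277) in NUP98-HOXD13. A high share of chromosome 11 was thus also found in NUP98-NSD1, but not in NUP98-HOXA9 or NUP98-HOXD13. Per 100 NUP98-JARID1A peaks in DMSO, chromosome 11 had 4.26 domains and chromosome 18 had 4.22. Copy number of the lines is not given in the sources used here, and its part in these counts was not tested. Among the domains on chromosome 11 were those at Bcl11a, Ikzf1, Purb, Suz12, Crlf3, Msi2, Stat5b and Vps54.

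Of the 13 domains with no MLL1 peak in another DMSO line 6 narrowed to at most 50% after VTP50469, and 4 of these 6 had no treated peak left. Where the widest other peak was under 500 bp, 1 of 5 narrowed. With at least 500 but under 1000 bp it was 9 of 65, with at least 1000 but under 1500 bp 16 of 136, and with 1500 bp or more 11 of 182. Over all 401 domains 43 (10.7%) narrowed, against 11.8% of all NUP98-JARID1A DMSO peaks and 9.94% of wide ones. The first 2 groups are small, and the difference between groups was not tested. Most domains lay alone, and 32 were within 10 kb of another domain.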
